A study of Mus musculus with 6 samples.

Results

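The genes described here are 33 mouse genes of the interferon response and of peptide presentation on MHC class I, measured in hearts of wild-type mice and of mice labelled ERRα-null. They were taken as a named set, and each was read from the brightest probe set, by mean over the 6 arrays, whose only gene in the platform table was that member. Such a probe set existed for 30 of the 33 members, against 18193 genes on the whole array. Ifi44 and Oas1g had none, and the Isg15 probe set also carried a second symbol, so these 3 have no value here. Cxcl10, Mx1 and Mx2 lay below the filter on low signals. The remaining 27 were tested among 12965 genes, and they comprise 16 of the 21 type I members, all 7 gamma-induced members, all 3 antigen presentation members and 1 of the 2 chemokines.

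Type I interferons (alpha and beta) signal through JAK kinases to a complex that contains STAT2 and IRF9 and binds the interferon-stimulated response element (ISRE) in promoters of genes such as Ifit1, Rsad2 and Oas2, whose products block viral RNA, membranes or translation. Interferon-gamma acts through the gamma-activated site (GAS) and induces the factor genes Irf1 and Irf8. Their targets include immunity-related GTPases (Igtp, Irgm1, Ifi47), guanylate-binding proteins (Gbp2, Gbp3) and the peptide supply of MHC class I, the cell-surface complex that shows intracellular peptides to CD8 T cells. B2m is the light chain of that complex, Tap1 is a subunit of the peptide pump of the endoplasmic reticulum, and Tapbp encodes tapasin, which holds the pump beside an empty class I molecule. In an uninfected heart such genes are carried at a basal level by myocytes, endothelium and resident leukocytes. ERRα, encoded by Esrra, is a nuclear receptor known mainly for the control of mitochondrial and fatty acid genes.

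RNA of whole hearts under basal conditions from 3 WT male mice and 3 male mice labelled as knockouts lacking ERRα was hybridised to Affymetrix Mouse430_2 arrays, 1 heart per array. WT 2, WT 3 and the 3 KO-labelled mice are given as C57BL/6J aged 2 to 3 months, while the labels of WT 1 state neither strain nor age. No treatment or infection is named, and neither the deleted part of Esrra nor a relation among the mice is given, so the p-values concern only these hearts. Each rests on a spread that the statistical fit used below borrows in large part from all genes of similar signal. The signals are of bulk tissue, in which fewer cells of a type and less RNA per cell cannot be told apart.

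The heart labelled KO 1 kept 48.6% of the WT mean Esrra signal, against 6.48% in KO 2 and 4.86% in KO 3, so its signal goes against its label and every difference below is drawn with it included unless stated. WT 1 had the highest array median, 16 against 12.4 to 13.7 in the other 5, and it gave the highest value of the 6 hearts for 51.2% of all genes tested. After quantile normalization that share was 17.6%. All 8 cardiomyocyte markers passed the filter on low signals (a mean of 8.583 or more), with summed signals of 54305 to 62827.

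The promoters of several members carry the motifs after which both arms of the pathway are described. RefSeq promoter sequence (build GRCm38.p6, 250 bases before to 50 bases after the annotated start of the gene, read along the gene) was matched for 28 of the 33 members, with none for Usp18, Oas2, Mx1, Mx2 and Ifi27. The ISRE core was searched as GAAA, any 2 bases and GAAA again, and the GAS as TTC, any 3 bases and GAA, both on either strand. The ISRE core was present in 15 of the 28 members (53.6%) and in 3.99% of the 27025 genes with a promoter in the table. The GAS was present in 7 of the 28 (25%) and in 9.55% of the genes. The windows that follow are shown because they belong to the members whose values the results turn on or that define an arm. Capitals mark every match with its flanking bases in lower case, and an ISRE core on the opposite strand reads TTTC, any 2 bases and TTTC.
Igtp (chr11:58199496-58199546, plus strand): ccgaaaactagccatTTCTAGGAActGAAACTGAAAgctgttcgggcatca
Irgm1 (chr11:48871420-48871465, minus strand): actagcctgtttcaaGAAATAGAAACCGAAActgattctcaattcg
Gbp2 (chr3:142620589-142620628, plus strand): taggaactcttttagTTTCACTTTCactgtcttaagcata
B2m (chr2:122147533-122147572, plus strand): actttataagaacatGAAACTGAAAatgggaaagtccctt
Irf8 (chr8:120736172-120736228, plus strand): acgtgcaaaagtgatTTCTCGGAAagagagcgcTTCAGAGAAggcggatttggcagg
Irf1 (chr11:53769909-53769947, plus strand): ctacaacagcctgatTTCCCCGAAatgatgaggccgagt
Ifit1 (chr19:34640770-34640828, plus strand): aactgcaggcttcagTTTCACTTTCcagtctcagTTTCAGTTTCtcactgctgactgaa
Ifit3 (chr19:34583358-34583431, plus strand): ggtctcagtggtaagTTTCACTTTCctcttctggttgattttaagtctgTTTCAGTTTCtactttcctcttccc
Rsad2 (chr12:26456548-26456587, minus strand): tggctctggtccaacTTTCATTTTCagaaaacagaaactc
Bst2 (chr8:71537572-71537623, minus strand): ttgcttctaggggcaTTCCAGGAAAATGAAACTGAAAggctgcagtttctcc

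Igtp, the GTPase gene with the lowest p of the members, holds both motifs, with the GAS 45 and the ISRE core 34 bases before the start. Irgm1 holds 2 overlapping ISRE cores at 30 and 24 bases, and Gbp2 1 core at 59 bases before the start. B2m was the only antigen presentation member with an ISRE core, at 139 bases, since Tap1 and Tapbp had neither motif in this window. Irf8 holds 2 GAS matches and Irf1 1, and neither holds an ISRE core. Of the type I genes, Ifit1 and Ifit3 each hold 2 separate cores, Rsad2 holds 1 at 120 bases, and Bst2, the virus-tethering protein gene, holds 2 overlapping cores, the first of which also overlaps a GAS. By arm, 9 of 16 type I, 4 of 7 gamma-induced, 1 of 3 antigen presentation and 1 of 2 chemokine promoters held an ISRE core. The GAS was held by 4, 3, 0 and 0 of them. A match describes these letters and not a bound site.

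No member passed the test between the groups. With limma fitted to log2(signal + 16) and its p adjusted by Benjamini-Hochberg over all genes, at a threshold of 0.05, 0 of 27 members were higher in the KO-labelled hearts, against 1.81% of all genes tested, and 0 were lower, against 1.19%. The lowest adjusted p was 0.111, for Igtp. At an unadjusted p under 0.05, 5 members were higher (Irf8, Ifi27, Ifi35, Igtp and B2m) against 6.08% of all genes, and Cxcl9 alone was lower, against 6.46%. No member had all 3 KO-labelled hearts above all 3 WT hearts, as 6.8% of genes did. Cxcl9 was the single member with all 3 below, as were 9.43% of genes. The median log2 difference was 0.13 over the members and -0.03 over all genes tested. Of the members 20 were positive and 7 negative, while 44.9% of all genes tested were positive.

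What the members showed instead was a single heart that stood above the others. KO 3 gave the highest of the 6 signals for 21 of 27 members, while it was highest for 20.1% of all genes tested. WT 1 was highest for 5 members and the heart labelled KO 1 for 1, Oasl1, against 51.2% and 9.82% of all genes. In these deposited signals KO 2 was highest for no member, against 8.08% of all genes. The lowest of the 6 signals came from WT 2 for 11 members and from the heart labelled KO 1 for 9. These hearts were lowest for 24.8% and 13% of all genes. After quantile normalization KO 3 was highest for 18 of 27 members and for 19.2% of all genes, and KO 2 for 4 members and 15.4%. The heart labelled KO 1 was then lowest for 12 members and WT 2 for 7, against 15.1% and 16.5% of all genes. The map of members by heart shows this column by column.

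**Figure D1:**
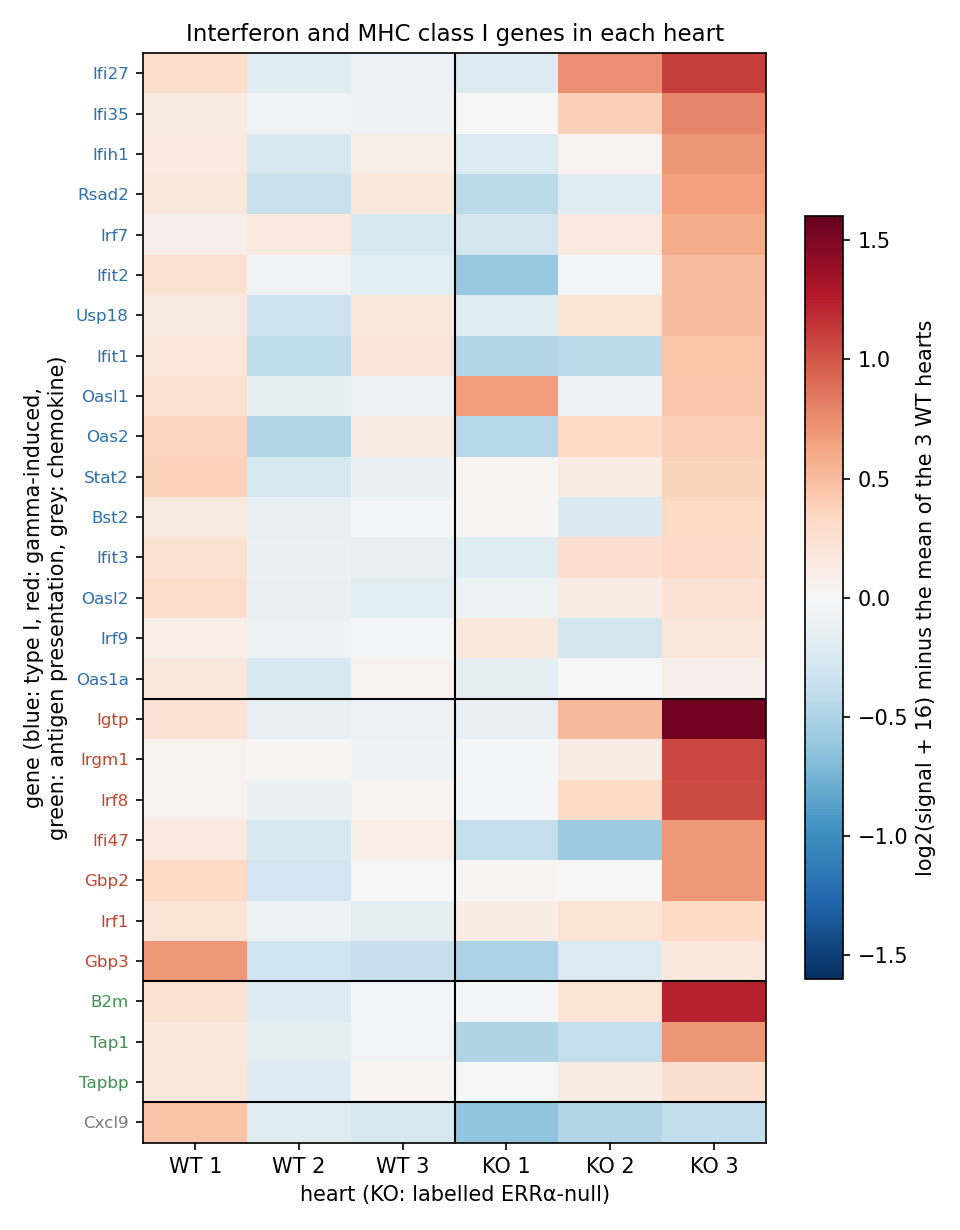
Each row is 1 of the 27 tested members and each column 1 heart, and the colour gives log2(signal + 16) minus the mean of the 3 WT hearts, with arms separated by horizontal lines and members ordered within an arm by KO 3. The KO 3 column is the darkest red, led by Igtp, B2m and Ifi27, while Cxcl9 lies below WT in all 3 KO-labelled hearts.

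Among the transcription factors and the RNA sensor, Irf8 stood furthest above the other hearts in KO 3. Irf8, a factor of macrophages and dendritic cells that is also induced by gamma, gave signals of 36.9, 31.3 and 37.2 in WT 1 to 3, against 33.9, 47.6 and 89.6 in KO-labelled hearts 1 to 3. KO 3 alone was far outside the WT range, and the heart labelled KO 1 lay within it (log2 difference 0.44, SE 0.20, limma adjusted p = 0.311). Irf1, which switches on much of the gamma response, spanned 108.2 to 144.1 in WT and 133.4 to 155.6 in the KO-labelled hearts (0.22, SE 0.17). Irf7, the amplifier of type I interferon production, ranged from 26.4 to 39.9 in WT and reached 59.9 in KO 3, with 25 in the heart labelled KO 1. Ifih1, which encodes the double-stranded RNA sensor MDA5, ran from 31.5 to 47.7 in WT and reached 76.5 in KO 3. Stat2 and Irf9, whose products belong to the type I complex, overlapped between the groups, with Stat2 at 22 to 42.9 in WT and 30.6 to 42.2 in the KO-labelled hearts, and Irf9 at 56.1 to 65.9 and 46.2 to 70.7.

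Of the IFIT proteins, which hold viral RNA away from the ribosome, none differed between the groups beyond the spread. Ifit1 signals were 44.7, 24.3 and 45.6 in WT, against 22.4, 23.8 and 56.1 in KO-labelled hearts 1 to 3. The first 2 of those KO-labelled hearts were below every WT heart and KO 3 was above every WT heart, so the mean difference of -0.15 hides opposite departures. Ifit2 lay at 55.7 to 80.3 in WT, 37.7 in the heart labelled KO 1, 63.3 in KO 2 and 99.5 in KO 3. Ifit3 lay between 66.5 and 100.8 in all 6 hearts. Usp18, the protease that removes ISG15 and dampens the type I receptor, had 19.6 to 34.5 in WT and 46.8 in KO 3.

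The OAS family, whose active enzymes make the messenger that activates RNase L, showed little of the KO 3 pattern, with departures of 0.11 to 0.42 from the mean of the other 5 hearts. Oas1a gave its highest signal, 61.7, in WT 1 and 56.3 in KO 3. Oasl2 did likewise, with 89.2 in WT 1 and 84.7 in KO 3. Oas2 was low in WT 2 (19.9) and in the heart labelled KO 1 (20.2) and at 38.8 to 49.3 in the other 4 hearts. Oasl1 was the single member highest in the heart labelled KO 1 (28.2), but its signals of 9.1 to 16.8 in WT were close to the filter at 8.583.

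Of the type I effectors, Ifi27, Rsad2 and Ifi35 stood furthest above the other hearts in KO 3. Ifi27, a small mitochondrial and nuclear envelope protein gene, gave 187, 130.2 and 141.1 in WT 1 to 3, against 127.2, 260.9 and 339.4 in KO-labelled hearts 1 to 3. KO 2 and KO 3 were both above the WT range, and the heart labelled KO 1 was below it (0.53, SE 0.20, limma adjusted p = 0.180). Ifi35 gave 235.7, 205.6 and 201.9 in WT, against 213.5, 283.7 and 380.4 in KO-labelled hearts 1 to 3, with the same 2 hearts above WT (0.39, SE 0.17). Rsad2, which encodes viperin, an enzyme that makes a chain-terminating nucleotide, gave 332.5, 224.1 and 329.8 in WT, against 213.2, 253.3 and 469.9 in KO-labelled hearts 1 to 3. Its group means were close, 295 ± 61.8 and 312 ± 138 (SD, n = 3 each), because KO 3 was above the WT range, KO 1 below it and KO 2 inside it. Bst2 lay at 52.3 to 67.2 in WT and 48 to 77.2 in the KO-labelled hearts. Mx1 and Mx2, GTPases that trap viral particles, did not exceed 13.1 on any array and were not tested.

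Among the gamma-induced GTPases, which act on the membranes around intracellular pathogens, Igtp and Irgm1 stood highest in KO 3. Igtp gave 157.3, 118.3 and 122 in WT 1 to 3, against 118.3, 195.2 and 413 in KO-labelled hearts 1 to 3. The KO 3 value was 2.90 times the mean of the other 5 hearts, while the heart labelled KO 1 equalled the lowest WT heart (0.64, SE 0.22, limma adjusted p = 0.111). Irgm1 gave 87.8, 85.2 and 78.1 in WT, against 81.7, 92.4 and 193.7 in KO-labelled hearts 1 to 3, so that 5 hearts lay between 78.1 and 92.4 and KO 3 was 2.28 times their mean. Ifi47 was higher in KO 3 (88.1) than in WT (37.6 to 55.5), but KO 2 had the lowest signal of all, 26.8. Gbp2 ran from 90.8 to 148.8 in WT and reached 197.7 in KO 3. Gbp3 differed from these, since its highest signal was in WT 1 (78.7), with 50 in KO 3 and 25.1 to 34.2 in the other 4 hearts.

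B2m had the second-lowest p of the members, after Igtp, and was high in KO 3 alone. Its signals were 2046.8, 1487.9 and 1672.2 in WT 1 to 3, against 1692.7, 2000.8 and 4075.9 in KO-labelled hearts 1 to 3. KO-labelled hearts 1 and 2 were inside the WT range and KO 3 was 2.29 times the mean of the other 5 (0.48, SE 0.17, limma adjusted p = 0.126). The group means were 1736 ± 285 in WT and 2590 ± 1296 in the KO-labelled hearts (SD, n = 3 each), with KO 3 far from the other KO-labelled hearts. Tap1 gave 32.3 to 44.5 in WT, 22.3 and 24.9 in KO-labelled hearts 1 and 2, both below WT, and 71.2 in KO 3. Tapbp gave 426.9, 321.4 and 382 in WT, against 374.4, 406 and 451.8 in KO-labelled hearts 1 to 3, a narrow range in which KO 3 was again the highest (0.12, SE 0.16).

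The chemokine Cxcl9, a T cell attractant made mainly in response to gamma, went the other way. It gave 68.9, 38.1 and 35.6 in WT 1 to 3, against 24.1, 28.9 and 31 in KO-labelled hearts 1 to 3. The groups did not overlap, but the gap between the lowest WT heart and KO 3 was small and WT 1 was far above the other WT hearts (-0.50, SE 0.19, limma adjusted p = 0.197). Its second probe set was near the filter, at 5.2 to 12.9, and had a difference of 0.16 in the opposite direction. Cxcl10 gave 4.2 to 17.8 and was not tested.

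**Figure D2:**
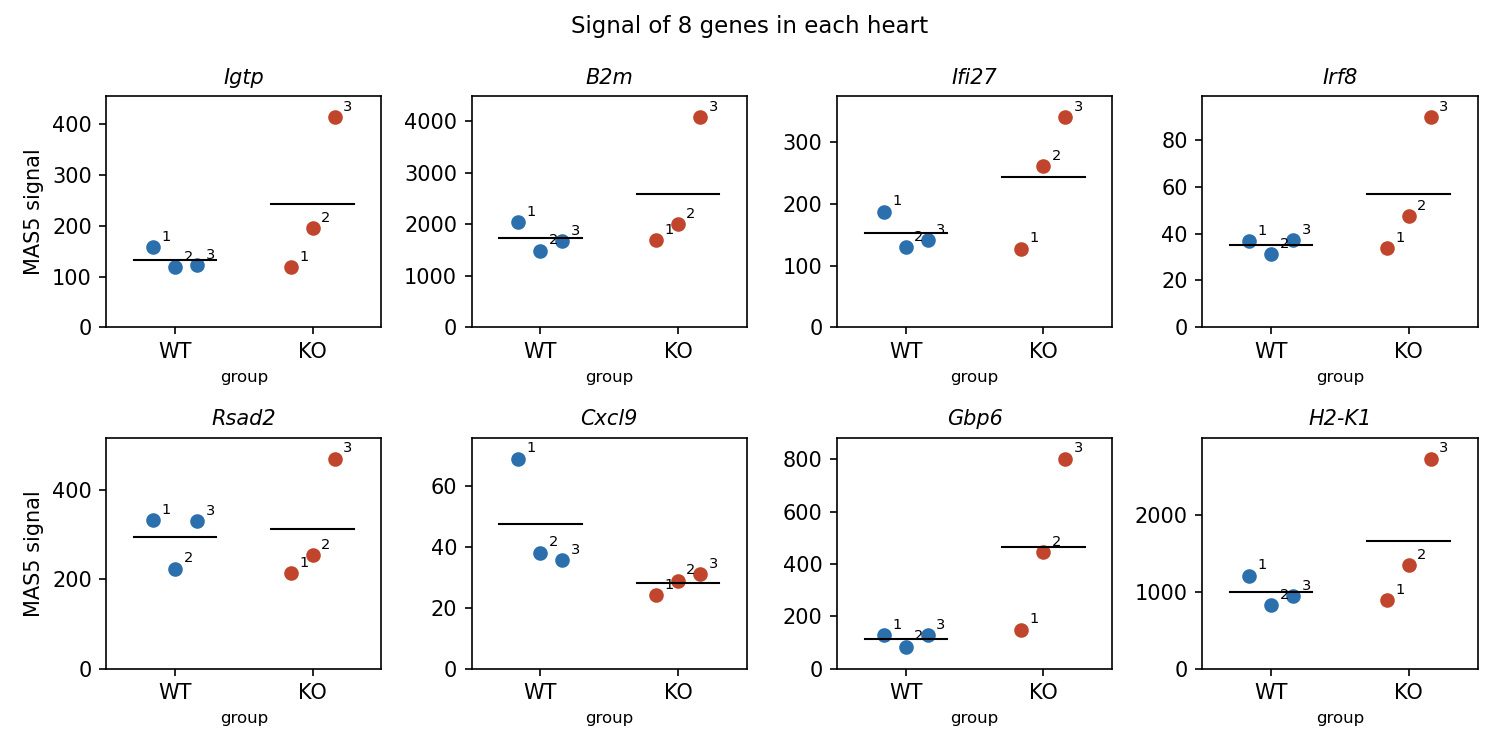
The MAS5 signal (linear axis from 0) is plotted for 8 genes with WT hearts in blue, KO-labelled hearts in red, the heart number beside each point and a line at the group mean. In 7 of the 8 panels KO 3 is the highest point, while for Cxcl9 the 3 KO-labelled hearts lie at 24.1 to 31, below the WT hearts.

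Set by arm, the mean departure of KO 3 was wider over the gamma-induced and antigen presentation members than over the type I members. The mean log2 value relative to WT in KO 3 was 0.47 over the 16 type I members, 0.79 over the 7 gamma-induced members and 0.74 over the 3 antigen presentation members, against 0.02 over all genes tested. In KO 2 the same 3 means were 0.07, 0.05 and -0.02, and in the heart labelled KO 1 they were -0.15, -0.13 and -0.17. The WT hearts themselves spread from -0.19 to 0.21, from -0.17 to 0.25 and from -0.19 to 0.20, with WT 1 highest in each arm. Quantile normalization lowered WT 1 to 0.04, 0.06 and 0.03 and left KO 3 at 0.43, 0.74 and 0.72. The median group difference was 0.11 over type I members and 0.23 over the 10 gamma-induced and antigen presentation members together. Without KO 3 these medians were -0.07 and 0.05. The arms were not uniform. Within type I the KO 3 mean ran from 0.28 over the 4 OAS genes to 0.71 over the 4 tested effectors. Among the further pathway genes described below, it was 1.15 over 5 gamma-induced GTPases and 0.17 over 43 type I induced genes. Over 18 class I and peptide loading genes it was 0.34, lower than over the type I members. The arms were not tested against each other, since the members of an arm share the same 6 hearts.

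**Figure D3:**
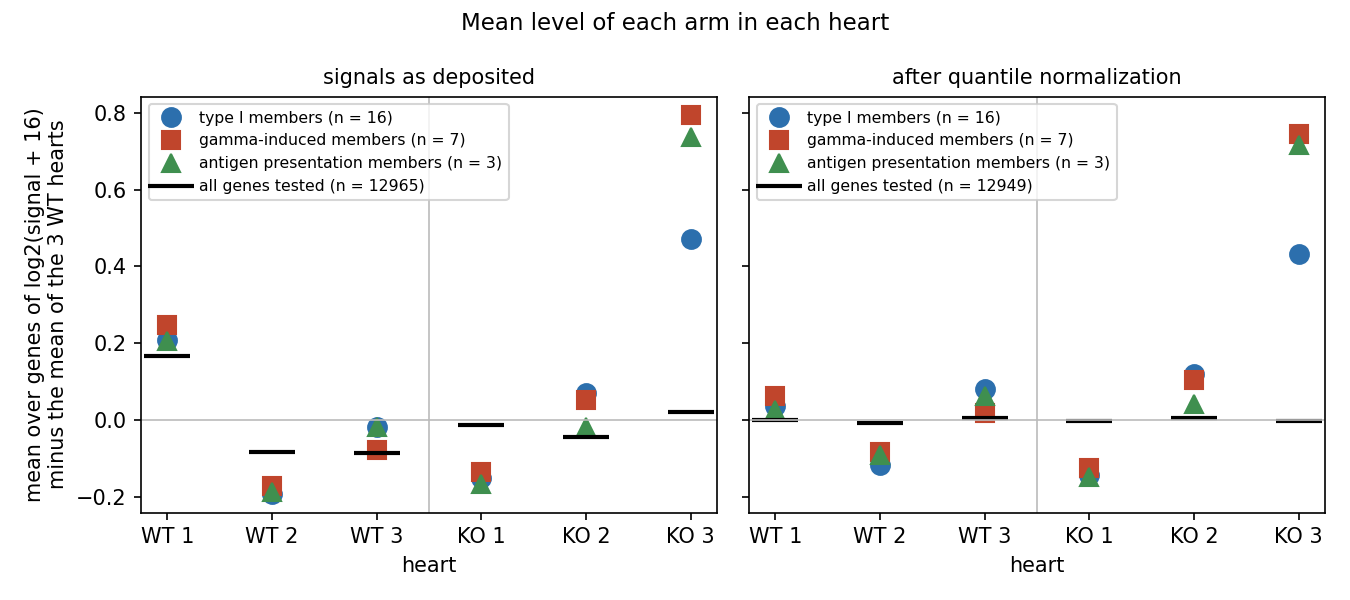
Points give, for each heart, the mean over the members of an arm of log2(signal + 16) minus the mean of the 3 WT hearts, from signals as deposited (left) and after quantile normalization (right), and black bars give the mean of all genes tested. In KO 3 the gamma-induced and antigen presentation means lie at 0.79 and 0.74 and the type I mean at 0.47 in the left panel, while in the other 5 hearts the 3 arms lie close together.

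To place this beside the other arrays, each heart in turn was set against the mean of the other 5. In KO 3, 26 of 27 members were above that mean, all except Cxcl9, as were 55.2% of all genes, and the median departure was 0.62 for the members and 0.03 for all genes. The count was the same after quantile normalization, where 49.2% of genes were above. In WT 1, 23 members were above, as were 81.9% of genes, but after quantile normalization 10 members and 52.3% of genes were. Low departures were seen in WT 2 and in the heart labelled KO 1. In WT 2, 2 members were above and 25 below, while 35% of genes were above. The WT 2 median was -0.30 against -0.08 for all genes. In WT 3, 7 members were above and 20 below, while 33.2% of genes were above. In the heart labelled KO 1, 4 members were above and 23 below, while 48.2% of genes were above. Its median was -0.31 against -0.01 for all genes. In KO 2, 13 members were above and 14 below, while 39.6% of genes were above. After quantile normalization 3, 12, 4 and 16 members were above in WT 2, WT 3 and KO-labelled hearts 1 and 2. The shares of all genes were then 51.3%, 53%, 50.3% and 50.6%. Of the members, 14 were among the 5% of genes with the highest departure in KO 3 and 7 among the highest 1%, against 2, 0, 1, 1 and 1 among the highest 5% in WT 1 to 3 and KO-labelled hearts 1 and 2. Those 7 were Igtp (1.46, rank 16 of 12965), B2m (1.2, rank 47), Irgm1 (1.06, rank 68), Irf8 (0.99, rank 81), Ifi27 (0.99, rank 83), Ifi47 (0.89, rank 107) and Tap1 (0.88, rank 111). The heart was singled out after these values were seen, so they are given as a description with no test.

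**Figure D4:**
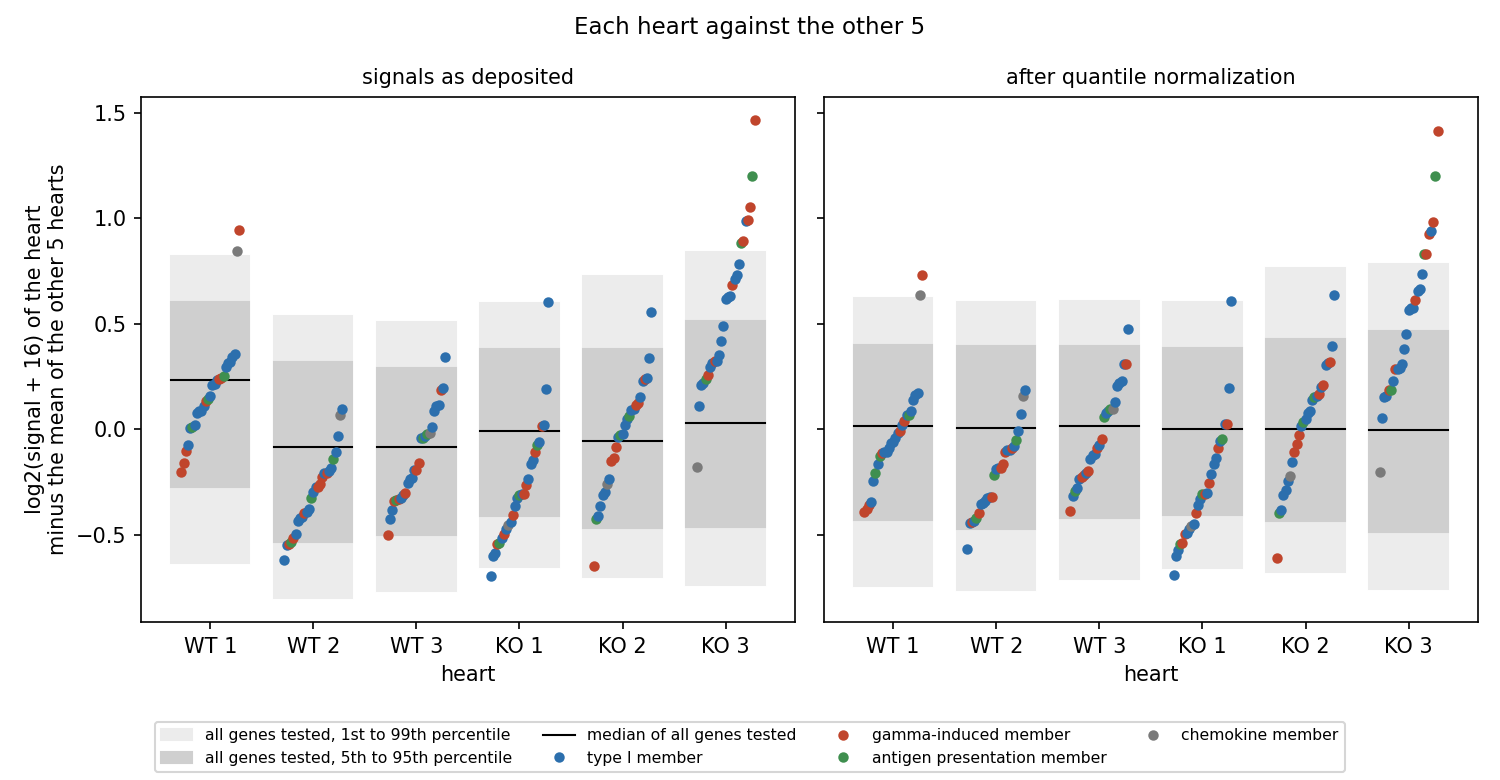
For each heart, points give the 27 members' log2(signal + 16) minus the mean of the other 5 hearts, over grey bars for the central 90% and 98% of all genes tested, from deposited signals (left) and after quantile normalization (right). In KO 3 all members except Cxcl9 lie above 0 and 7 lie in the highest 1% of genes. In WT 2, WT 3 and the heart labelled KO 1 most members lie below 0 in the left panel. Of all genes, 35%, 33.2% and 48.2% lie above 0 in those hearts there.

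Because KO 3 so often held the highest value, the comparison was repeated without it. Of the 27 members, 14 were then positive and 13 negative, while 42.1% of all genes were positive. The median difference was 0.01 against -0.04 over all genes. No member passed, and the lowest limma adjusted p was 0.266, for Cxcl9. Igtp went from 0.64 to 0.19 (SE 0.20), B2m from 0.48 to 0.10 (SE 0.16) and Irgm1 from 0.39 to 0.05 (SE 0.20). Rsad2 went from 0.02 to -0.31 and Tap1 from -0.05 to -0.43, neither past the threshold. Leaving out the heart labelled KO 1, the one with the remaining Esrra signal, did the reverse. Igtp (1.03, limma adjusted p = 5.96e-05), B2m (0.73, adjusted p = 0.000111), Ifi27 (0.91, adjusted p = 0.000723) and Irf8 (0.68, adjusted p = 0.0324) then passed as higher, with 2 KO-labelled hearts left. Without KO 2, Igtp (adjusted p = 0.0476) and B2m (adjusted p = 0.0108) passed. With all 6 hearts and the filter raised to the 60th percentile, Igtp (adjusted p = 0.00913), B2m (0.00829) and Ifi27 (0.0483) passed too, so for these 3 the call also turns on the filter. The standard error from each member's own 6 values exceeded that of the fit, which borrows from all genes, for 21 of 27 members, as it did for 39% of all genes. With all 6 hearts the own standard error was 0.50 against 0.22 for Igtp and 0.41 against 0.17 for B2m.

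**Figure D5:**
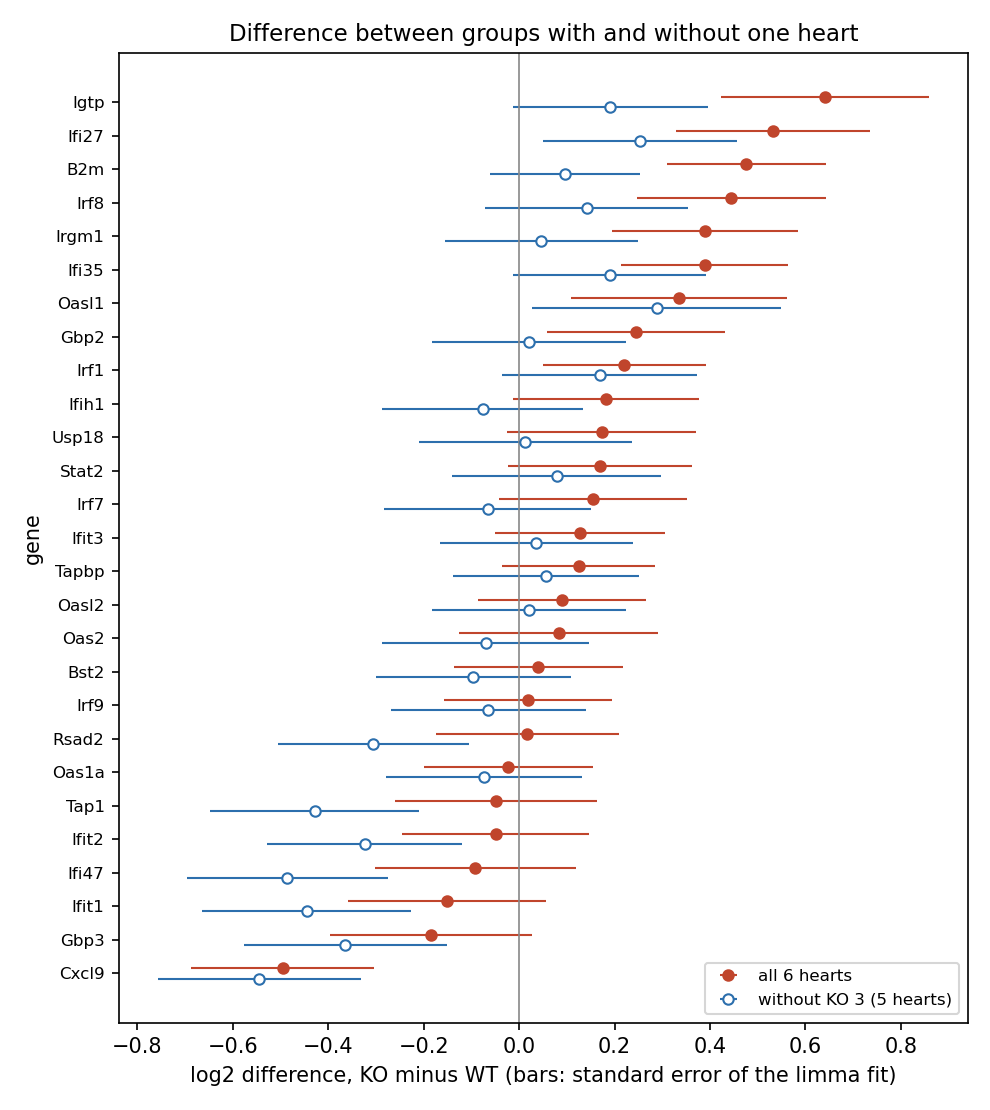
Points give the log2 difference, KO-labelled minus WT hearts, of each tested member from the limma fit with its standard error, with all 6 hearts (red, filled) and without KO 3 (blue, open). Igtp, B2m and Irgm1 move from 0.64, 0.48 and 0.39 to 0.19, 0.10 and 0.05, and Cxcl9 stays at about -0.5.

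The members with several probe sets mostly showed the pattern on each. Of the 9 members with more than 1 probe set above the filter, all sets of B2m, Gbp2, Ifi27, Ifi35, Irf8, Rsad2 and Tapbp were highest in KO 3. On its second probe set B2m had 1948.1, 1313.4 and 1767.5 in WT, against 1343.4, 1948.3 and 3345.4 in KO-labelled hearts 1 to 3. The second Ifi27 set gave 126.4 to 151.8 in WT, 154.8 in the heart labelled KO 1, 212.8 in KO 2 and 348.8 in KO 3, so that on it the groups did not overlap. The exceptions were Stat2, highest in WT 1 on its brighter set and in KO 3 on the other, and Cxcl9.

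Other genes of the pathway were read from 9 lists, of which 111 genes were tested. Of these 3 rose, 1 fell and 107 did not pass, while 1.81% of all genes tested rose and 1.19% fell. KO 3 gave the highest signal for 43 of the 111 (38.7%), against 20.1% of all genes tested. Gbp6, a further guanylate-binding protein gene, rose from 127.7, 83.5 and 126.5 in WT to 148.8, 444.4 and 801.6 in KO-labelled hearts 1 to 3 (1.64, SE 0.26, limma adjusted p = 1.43e-05). All 3 KO-labelled hearts were above WT, though the heart labelled KO 1 by little, and the call held without KO 3 (1.12) but not without WT 1 (adjusted p = 0.139) or after quantile normalization (adjusted p = 0.0593). Irgm2, a relative of Irgm1, gave 53 to 69.2 in WT and 53.9, 83.3 and 198.5 in KO-labelled hearts 1 to 3, and did not pass. Iigp1 of the same GTPase family gave its highest signal, 788, in WT 1, with 320.4 to 555.7 in the KO-labelled hearts.

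The class I heavy chains H2-K1 and H2-D1, which pair with B2m, were likewise highest in KO 3 and did not pass. H2-K1 gave 1208.4, 822 and 939.2 in WT, against 891.2, 1346.4 and 2726.5 in KO-labelled hearts 1 to 3 (0.60, SE 0.19, limma adjusted p = 0.0847). H2-D1 gave 471.9 to 721.4 in WT, 584.1 and 643.9 in KO-labelled hearts 1 and 2, and 1442.6 in KO 3 (0.46, SE 0.19, adjusted p = 0.254). In the class I and peptide loading list 0 of 18 genes rose and 1 fell. That gene was Psme1, a subunit of the PA28 proteasome activator, with 1057.2, 1093.8 and 1013.2 in WT, against 845.9, 555.6 and 669.6 in KO-labelled hearts 1 to 3 (-0.62, SE 0.15, limma adjusted p = 0.00821). Its groups did not overlap, and it was low in all 3 KO-labelled hearts rather than high in KO 3. Its adjusted p was 0.0854 without WT 1 and 0.209 without KO 2. It was 0.112 with no intensity trend in the fit and 0.115 with no filter. The immunoproteasome genes Psmb8 and Psmb9, which trim peptides for class I, gave 111.8 and 83.5 in KO 3 against 55.1 to 85.7 and 36.1 to 56.7 in WT, and did not pass.

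All 6 tested MHC class II genes, which present extracellular peptides and also respond to gamma, were highest in KO 3, and 2 of them rose. Of all genes tested, 20.1% were highest in KO 3 and 1.81% rose. H2-Ab1 gave 99.1 to 108.3 in WT, against 120.6, 197.6 and 373.1 in KO-labelled hearts 1 to 3 (0.93, SE 0.21, limma adjusted p = 0.0041). H2-Aa gave 567.6 to 814.1 in WT, against 649.7, 1065.9 and 1686.1 in KO-labelled hearts 1 to 3 (0.65, SE 0.18, adjusted p = 0.0359). Neither call held without KO 3, without WT 1 or after quantile normalization, where the adjusted p was 0.256, 0.210 and 0.0912 for H2-Ab1 and 0.687, 0.242 and 0.164 for H2-Aa. Median centring gave 0.0716 for H2-Ab1 and 0.157 for H2-Aa, and the H2-Aa call was also lost without WT 3 (adjusted p = 0.142). With no intensity trend the adjusted p was 0.0986 for H2-Ab1 and 0.284 for H2-Aa. The H2-Ab1 call was also lost with the mean of its probe sets (adjusted p = 0.108).

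Upstream of these genes no call was made. Of 9 interferon receptors and JAK kinases, 10 signal transducers and feedback genes and 12 nucleic acid sensors and adaptors, none passed. KO 3 was highest for 1 gene in each list, while it was highest for 20.1% of all genes tested. Jak1 had the lowest p among the receptors and kinases (0.27, adjusted p = 0.457), Irf2 among the transducers (0.32, adjusted p = 0.500) and Zbp1 among the sensors (0.42, adjusted p = 0.521). Of 43 further type I induced genes none passed. KO 3 was highest for 17 of them and WT 1 for 19, against 20.1% and 51.2% of all genes tested. Their mean log2 value relative to WT in KO 3 was 0.17, against 0.47 over the type I members. Ifi30, a lysosomal thiol reductase gene of antigen processing, had the lowest p among the 43 (0.53, adjusted p = 0.110). Of 9 chemokines and ligands of the gamma response none passed. Ccl5, made by T cells and macrophages, gave 1.7 to 3.9 in WT, 4.3 and 9 in KO-labelled hearts 1 and 2, and 36.7 in KO 3. Its other values lay near or below the filter at 8.583, so its mean passed the filter only through KO 3. The interferons themselves were not measurable here, since the 5 with a probe set (Ifnb1, Ifng, Ifna1, Ifna2 and Ifna4) were all below the filter, with Ifng at 0.4 to 0.9 in WT and 0.9 to 3.1 in the KO-labelled hearts.

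Markers of leukocytes and stroma were read from the same arrays, on which 1.81% of all genes tested rose and 20.1% were highest in KO 3. Of 10 macrophage markers 1 rose, the scavenger receptor gene Cd163 (0.85, limma adjusted p = 0.00146), and 6 were highest in KO 3, with summed signals of 2312 to 3508 in WT and 2506 to 3658 in the KO-labelled hearts. Of 6 B and plasma cell markers, the immunoglobulin genes Ighm and Jchain rose. Ighm gave 11.5 to 29.9 in WT, 24.9 in the heart labelled KO 1, 736.2 in KO 2 and 428.3 in KO 3, and without WT 1 the adjusted p was 0.251 for Ighm and 0.0817 for Jchain. The Ighm call was also lost after quantile normalization (0.108) and median centring (0.0594). Their summed list was 91.9 to 115 in WT and 113.4, 976.7 and 608.4 in KO-labelled hearts 1 to 3, so it was highest in KO 2 and not in KO 3. Of 9 T and NK cell markers 2 were tested and neither passed. Their summed signals were 43.3, 35.8 and 16.3 in WT, against 50.6, 22.3 and 49.7 in KO-labelled hearts 1 to 3. Cd3e, at 2.3 to 4.1, and Cd3d, at 0.6 to 1.7 on all 6 arrays, lay below the filter and were not tested. The 3 tested plasmacytoid dendritic cell markers, the 4 neutrophil and the 2 erythroid markers did not pass.

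Of 8 endothelial markers none passed and 6 were highest in KO 3, against 20.1% of all genes tested. Their sums were 4393 to 5377 in WT and 4449 to 5495 in the KO-labelled hearts. All 7 fibroblast markers had the KO-labelled hearts above WT and were highest in KO 3, against 6.8% and 20.1% of all genes tested. Of these Col3a1 passed, a call lost without KO 3 (adjusted p = 0.510) and without any 1 of the WT hearts (adjusted p = 0.0840 to 0.143). The Col3a1 call was also lost with the mean of its probe sets (0.160), no intensity trend (0.252) and no filter (0.249). The sums of the 7 markers were 5640 to 6795 in WT and 7470, 7644 and 8977 in KO-labelled hearts 1 to 3. Of 6 smooth muscle and pericyte markers 2 rose, Acta2 and Cnn1, with adjusted p of 0.133 and 0.370 without WT 1, and 0.0517 and 0.204 after quantile normalization. Cnn1 was also lost after median centring (0.142) and without the heart labelled KO 1 (0.0866). Acta2 was also lost with the mean of its probe sets (0.117). The 6 atrial and 4 adipocyte markers all rose, with adipocyte sums of 75.2 to 98.9 in WT and 316.5, 1817 and 1542 in KO-labelled hearts 1 to 3. Without WT 1 the calls of 4 atrial markers (Myl4, Mybphl, Myl7 and Nppa, adjusted p = 0.0656 to 0.107) and 3 adipocyte markers (Adipoq, Retn and Cidec, adjusted p = 0.0606 to 0.179) were lost. Retn was also lost after quantile normalization (0.110), after median centring (0.0826) and without KO 2 (0.406). Cidec, at an adjusted p of 0.0476 with all hearts, was lost after quantile normalization (0.111), after median centring (0.0952) and with the replicate block (0.0549). Its call was also lost without WT 2 (0.0664), WT 3 (0.134), KO 2 (0.256) or KO 3 (0.405). None of the 8 cardiomyocyte markers passed. The part of these markers in the KO 3 values of the interferon and MHC genes was not tested.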

How the data were processed

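The deposited values are intensity signals of the MAS5 software on a linear scale, per the submitters' processing notes; the version and the scaling target were not given in the sources used here, and array medians differ. The platform table gave 1 symbol to 34945 of 45099 probe sets, several to 932 and none to 9160, and 62 are controls. From the deposited intensity values log2 of signal plus 16 was taken with no further normalization. Genes whose brightest single-symbol probe set had a mean signal under the 40th percentile of non-control probe sets (8.583) were left out. Differences were fitted with limma 3.58.1 (R 4.3.3; lmFit, eBayes with an intensity trend), two-sided, with Benjamini-Hochberg adjustment over 12965 genes and a threshold of 0.05. The fit was checked on simulated data with noise drawn independently for each gene and heart. That check does not cover a departure shared by many genes of a heart, as seen in WT 1. Fold changes on this scale understate the change of low genes, and 3 arrays a group limit the precision.

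All members are named. Signals in all hearts are given for members that passed, whose groups did not overlap, or among the 5 of smallest p or the 5 brightest, and for a few others; of the further lists, genes that passed and some of the smallest p. Members and lists were chosen with earlier results of these data known. Same-numbered WT and KO-labelled hearts did not deviate together (correlations of 0.03, -0.02 and 0.03), so hearts were not paired. The alternatives tried were quantile normalization, median centring, pseudocounts of 1 and 64, no filter and one at the 60th percentile, the mean of probe sets, no trend, the replicate block and leaving out each heart. The title of WT 1 and a comment in its array header give different mouse numbers.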

Additional observations from a re-analysis of the deposited data

How the results depend on the processing

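Over the 15 alternatives, 370 of 404 member differences kept their sign and their side of the threshold, 9 passed it and 25 changed sign, and 14 of 27 members never changed sign. No alternative called a member lower. Members called higher numbered 3 with the filter at the 60th percentile (Ifi27, Igtp and B2m, with 9853 genes tested), 0 to 4 when a heart was left out, and 0 elsewhere. All genes called higher and lower numbered 49 and 18 with no filter and 117 and 49 with no intensity trend, and 106 to 303 and 22 to 207 when a heart was left out, lowest without WT 1. With the replicate block, which pairs hearts by number, they were 222 and 170, and no member was called. Among the genes of the further lists that passed, only Adipoq, Bmp10, Car3, Mybphl, Myl4 and Sln still passed with no filter. With no intensity trend Acta2, Cidec, Cnn1, Col3a1, H2-Aa, H2-Ab1, Psme1 and Retn did not pass. With the mean of the probe sets Acta2, Cidec, Col3a1 and H2-Ab1 did not pass. Esrra lay between -3.39 and -2.12 when a heart was left out, and without WT 1 its adjusted p was 0.0669. The mean of the probe sets turned Stat2 (-0.0102). When a heart was left out, differences that changed sign ranged from -0.066 to 0.378 for Irf7, -0.0641 to 0.175 for Irf9, -0.0763 to 0.381 for Ifih1, -0.445 to 0.00958 for Ifit1, -0.32 to 0.23 for Ifit2, -0.143 to 0.0688 for Oas1a, -0.15 to 0.36 for Oas2, -0.31 to 0.24 for Rsad2, -0.10 to 0.18 for Bst2, -0.49 to 0.16 for Ifi47, -0.37 to 0.16 for Gbp3 and -0.43 to 0.17 for Tap1. The medians ranged from -0.07 to 0.24 for type I and 0.05 to 0.37 for gamma-induced and antigen presentation members. The cause was not tested. Low signals, such as those of Oasl1, Mx1 and Cxcl10, are close to background.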
